A study of Mus musculus with 2 samples.

Results

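Nfkb1, Nfkb2, Rela, Relb and Rel encode the 5 subunits of NF-kB, and Nfkbia, Bcl3, Birc3, Tnfaip3 and Tnfrsf1a encode inhibitors, co-regulators and signalling proteins of the same pathway. These 10 genes were taken by symbol from the 32285 genes counted in both libraries of the series, and all 10 were found. The series profiled nuclei from the mouse subventricular zone (SVZ), a germinal layer beside the lateral ventricle, by single-nucleus RNA sequencing. One group, called MIP, went through modeled intestinal perforation from postnatal day 5 and was sampled 48 h later, on postnatal day 7. The other was made up of healthy control mice of the same age. Each group was 1 library of snap-frozen tissue, and the sources used here do not give strain, sex or the number of animals pooled.

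NF-kB is a family of dimeric transcription factors held in the cytoplasm by inhibitor proteins until a kinase complex marks the inhibitor for destruction. Receptors for tumour necrosis factor, interleukin 1 and microbial products start this reaction, and the freed dimers switch on inflammatory genes together with their own inhibitors, so the pathway limits itself. A slower branch processes the Nfkb2 precursor and works through RelB. In the brain the pathway is best known in microglia, the resident macrophages, and is also used by astrocytes and the cells of vessels and meninges.

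Tnfrsf1a (ENSMUSG00000030341, chr6:125349362-125362484, plus strand) encodes a receptor for tumour necrosis factor. Rela (ENSMUSG00000024927, chr19:5637483-5648130, plus strand), Rel (ENSMUSG00000020275, chr11:23736847-23770970, minus strand) and Relb (ENSMUSG00000002983, chr7:19606217-19629438, minus strand) encode the subunits that carry a transactivation domain. Nfkb1 (ENSMUSG00000028163, chr3:135584655-135691547, minus strand) and Nfkb2 (ENSMUSG00000025225, chr19:46304320-46312385, plus strand) encode the precursors p105 and p100 of the subunits p50 and p52. Nfkbia (ENSMUSG00000021025, chr12:55489410-55492647, minus strand) encodes the inhibitor IκBα, an early NF-kB target that ends the response. Bcl3 (ENSMUSG00000053175, chr7:19808462-19822770, minus strand) encodes a nuclear member of the inhibitor family that binds p50 and p52 dimers on DNA. Birc3 (ENSMUSG00000032000, chr9:7848699-7873186, minus strand) encodes cIAP2, a ubiquitin ligase of receptor complexes that is itself induced by NF-kB. Tnfaip3 (ENSMUSG00000019850, chr10:19000910-19015657, minus strand) encodes A20, a ubiquitin-editing enzyme that shuts the pathway down. Coordinates are those of whole genes, exons and introns together, in GENCODE release M21 on mm10. Nfkb1 shares bases with Gm43430 on the same strand, Nfkb2 with AC114539.1 and Psd on the opposite strand, and Bcl3 with the antisense genes Gm16175 and Gm16174, and since use of strand in counting is not stated, the counts of Nfkb2 and Bcl3 may hold reads of these neighbours.

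Promoter windows of 300 bases, from 250 before to 50 after a gene's start (RefSeq, GRCm38.p6), were found for 8 of the 10 genes, all but Nfkb1 and Relb. The windows of Bcl3 and Birc3 are shown because these genes differed most between the libraries in microglia-like nuclei, and those of Rel and Nfkbia as examples of a subunit and an inhibitor. Capitals mark matches, on either strand, to the kappa-B consensus, the 10-base sequence that NF-kB dimers recognise. The lines give Bcl3 at chr7:19822706-19823005, Birc3 at chr9:7873121-7873420, Rel at chr11:23770920-23771219 and Nfkbia at chr12:55492598-55492897, each 5′ to 3′ on the minus strand.
Bcl3: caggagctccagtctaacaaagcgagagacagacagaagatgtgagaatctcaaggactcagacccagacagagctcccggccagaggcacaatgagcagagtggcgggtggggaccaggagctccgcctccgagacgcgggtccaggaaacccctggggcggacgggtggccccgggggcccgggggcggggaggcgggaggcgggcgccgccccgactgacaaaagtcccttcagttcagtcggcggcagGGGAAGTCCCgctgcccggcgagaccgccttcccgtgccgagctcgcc
Birc3: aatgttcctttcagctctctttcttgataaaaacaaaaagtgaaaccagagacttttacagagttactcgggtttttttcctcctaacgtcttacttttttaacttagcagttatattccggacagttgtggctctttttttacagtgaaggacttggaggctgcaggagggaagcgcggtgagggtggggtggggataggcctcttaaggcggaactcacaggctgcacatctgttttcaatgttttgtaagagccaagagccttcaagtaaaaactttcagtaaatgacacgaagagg
Rel: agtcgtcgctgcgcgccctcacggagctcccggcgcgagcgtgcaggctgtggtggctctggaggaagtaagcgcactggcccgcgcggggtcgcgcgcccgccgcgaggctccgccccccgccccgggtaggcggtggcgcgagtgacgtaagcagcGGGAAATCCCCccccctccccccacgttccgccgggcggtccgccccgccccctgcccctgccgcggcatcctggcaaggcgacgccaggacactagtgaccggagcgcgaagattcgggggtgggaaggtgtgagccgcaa
Nfkbia: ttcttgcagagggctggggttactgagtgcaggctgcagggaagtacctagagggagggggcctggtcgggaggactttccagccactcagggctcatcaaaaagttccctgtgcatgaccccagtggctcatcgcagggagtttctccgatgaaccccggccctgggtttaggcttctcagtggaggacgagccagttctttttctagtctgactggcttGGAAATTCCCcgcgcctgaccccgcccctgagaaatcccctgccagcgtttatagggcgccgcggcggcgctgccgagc
The Bcl3 match reads as the consensus on both strands and begins 2 bases after the start position of the gene. The first of 2 overlapping stretches in Rel begins 92 bases upstream of the start, and the match in Nfkbia 29 bases upstream. The 8 genes have 11 windows, since Nfkb2 has 3 and Tnfaip3 has 2, and 7 of the 11 held at least 1 match (in Bcl3, Rel, Nfkbia, Nfkb2 and Tnfaip3), against 8.46% of all 32851 promoter windows in the table. Of the Nfkb2 windows, 2 overlap and have 1 match in common, so that site is counted in both. By gene, 5 of the 8 held a match, and no share by gene is given for all genes. The genes were picked as subunits and feedback genes of NF-kB, so a high share of matches is not read as a result. The windows of Birc3, Rela and Tnfrsf1a held no such letters, which says nothing about binding elsewhere.

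Depth was 100823376 UMIs (unique molecular identifiers, each a captured transcript) over 12366 barcodes in the MIP library and 146730970 UMIs over 16964 barcodes in the control library. After filtering, 10940 MIP and 14579 control nuclei were kept, and 115 barcodes occurred in both libraries. Y-linked transcripts gave 39461 UMIs in the MIP library and 36 in the control library, and Xist gave 118 and 200418, so the MIP library is of male and the control library of female tissue. MIP and sex therefore cannot be told apart in any value given here. No group has a second library, so differences have no replicate check and no test was made. Intervals are exact 95% intervals that cover counting error only, which leaves out the spread between animals. Nuclei were grouped into classes by marker genes, with the NF-kB genes kept out of the clustering, and "microglia-like" and similar names mean resemblance to those markers. The microglia-like class is a pair of clusters with 8 and 6 of the 10 microglia markers among their top 100 genes by fold. The interneuron-like class includes a cluster led by Tshz1 and Foxp2, which holds 575 of its 1104 MIP and 606 of its 1089 control nuclei. That cluster took the name on 3 of the 10 interneuron markers.

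Microglia-like nuclei ranked first for 8 of the 10 genes by the mean level of both libraries, among the 11 classes whose nuclei numbered at least 50 in both. Levels are given as CPM, a gene's UMIs scaled to the total UMIs of the class, and compared between classes for 1 gene at a time. The order by mean differs from that of each library. In control, Birc3 was higher in fibroblast-like (24.3 against 22.0 CPM) and Rela in cholinergic neuron-like nuclei (15.1 against 15.0). In MIP, Nfkb2 (17.6 CPM) and Tnfrsf1a (15.5 CPM) were also highest in microglia-like nuclei. The share of all genes that rank first in these nuclei is not given. Nfkb1 was at 362 CPM in MIP and 259 CPM in control microglia-like nuclei, 2.13 and 2.35 times the level in fibroblast-like nuclei. Its lowest levels were 52.2 CPM in excitatory neuron-like nuclei of the MIP library and 39.3 CPM in neuroblast-like nuclei of the control library. For both Nfkb1 and Rel the interval of microglia-like nuclei lay above that of the next class in each library. Rel, the subunit made mainly by blood and immune cells, was at 195 CPM in MIP and 103 CPM in control microglia-like nuclei, 4.78 and 4.67 times fibroblast-like nuclei. Differentiating oligodendrocyte-like nuclei followed with Rel at 21.5 and 22.3 CPM, not separate from fibroblast-like nuclei. Relb was at 63.2 CPM in MIP and 25.0 CPM in control microglia-like nuclei, and at 30.6 and 13.2 CPM in fibroblast-like nuclei. For Relb these classes were separate in the MIP library and not in the control library.

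Among the 11 classes compared, Bcl3 and Birc3 had their highest mean level in microglia-like nuclei. This peak was separate from the next class in the MIP library and not in the control library. Border macrophage-like nuclei, too few for this order (24 MIP and 22 control), also held both genes. Per UMI of the class, their Birc3 was no lower than that of microglia-like nuclei in either library, on few UMIs. In the MIP library Bcl3 was at 74.6 CPM in microglia-like nuclei and 1.70 CPM in fibroblast-like nuclei, next in order. In the control library the same classes were at 7.0 and 6.62 CPM, on 7 and 3 UMIs, and were not separate. Birc3 in the MIP library was at 118 CPM in microglia-like and 30.6 CPM in fibroblast-like nuclei. In the control library it was at 22.0 and 24.3 CPM, with overlapping intervals. Both genes were at or near 0 in progenitors, neuroblasts and oligodendrocytes: Birc3 had 0 UMIs in neuroblast-like nuclei of both libraries, and Bcl3 had 0 in cycling progenitor-like nuclei of both.

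Among the 11 classes compared, Nfkbia had 3 at its top that could not be separated. Endothelial-like nuclei, too few for this order (12 MIP and 21 control), stood higher in both libraries on few UMIs, as given under Other observations. Its levels were 39.4 CPM in MIP and 22.0 CPM in control microglia-like nuclei, 28.9 and 17.6 in fibroblast-like nuclei and 25.8 and 19.9 in astroglia-like nuclei. Astroglia-like nuclei were separate from neuroblast-like nuclei, next in order at 11.3 CPM in MIP and 11.5 CPM in control. Tnfaip3 was at 23.8 CPM in MIP and 15 CPM in control microglia-like nuclei and at 1.70 and 2.21 CPM in fibroblast-like nuclei, separate in the MIP library and not in the control library. Tnfrsf1a was at 8.50 CPM in MIP and 22.1 CPM in control fibroblast-like nuclei, and at 15.5 and 11 CPM in microglia-like nuclei, with intervals that overlap. Nfkb2 and Rela showed no class that stood apart from the next: Nfkb2 ranged over classes from 5.33 to 17.6 CPM in MIP and from 3.93 to 17.9 CPM in control, and Rela from 5.73 to 24.9 and from 8.22 to 15.1 CPM. The first 3 classes of Nfkb2 by mean level were neuron-like, without being separate from those that followed.

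**Figure D1:**
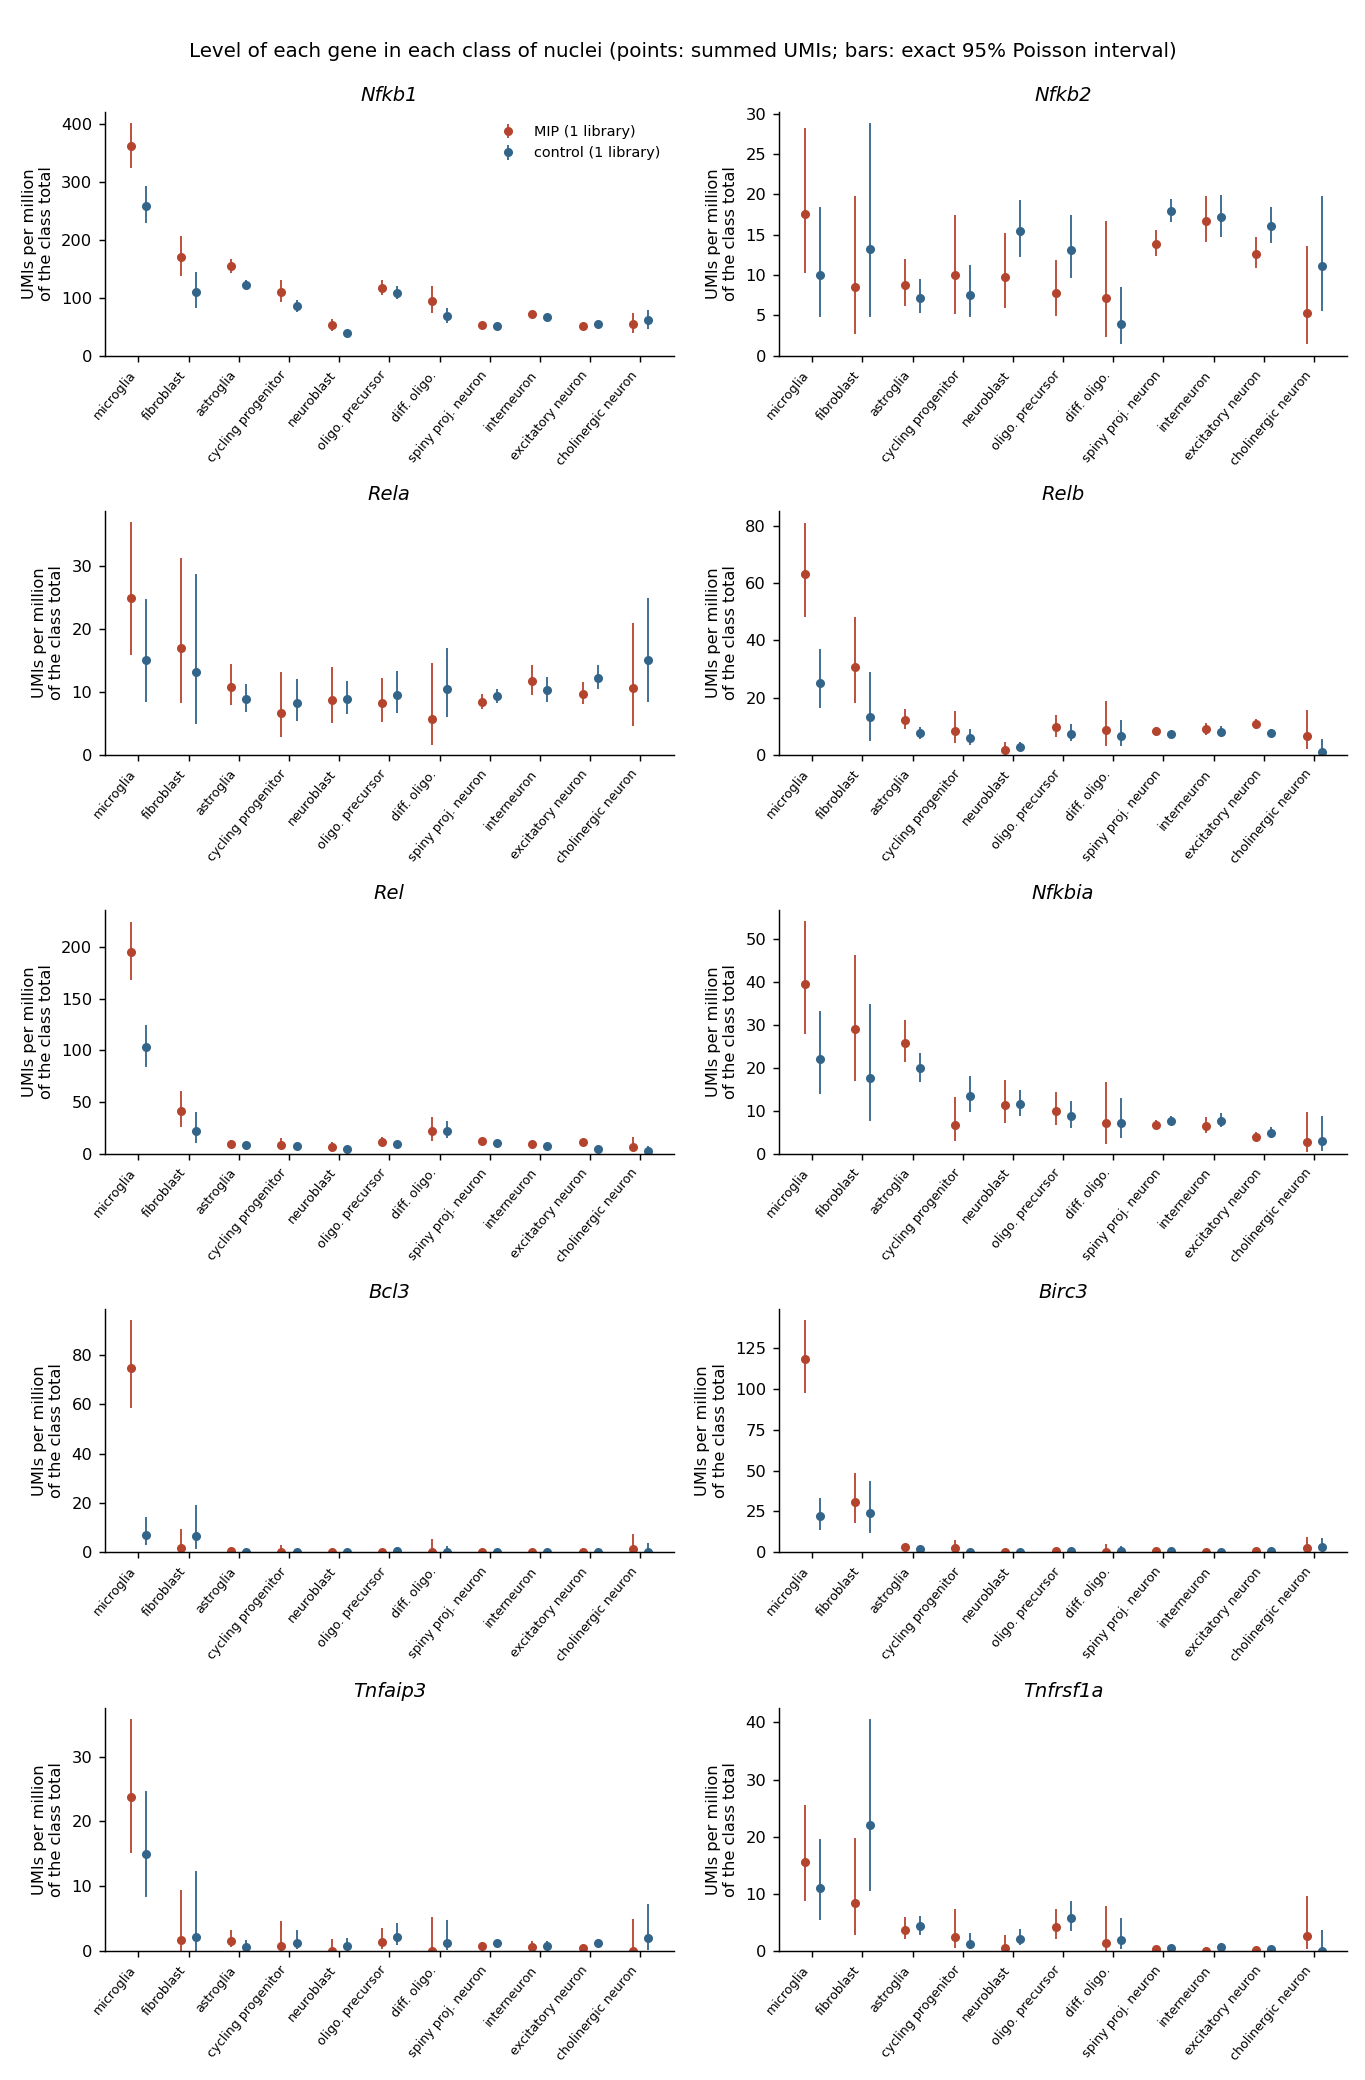
Level of each of the 10 genes, in CPM of the class total, in the 11 classes of nuclei (MIP left of control, 1 library each, bars exact 95% Poisson intervals). Bcl3 and Birc3 stand high in MIP microglia-like nuclei, at 74.6 and 118 CPM, and the levels of Nfkb2 overlap between classes.

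Within microglia-like nuclei, all 10 ratios of MIP to control were above 1, and 8 of the 10 genes were higher by at least 1.5-fold with at least 20 UMIs over both libraries, the rule used for "higher" and "lower" throughout. By the same rule 12.1% of the 10724 genes with enough UMIs in these nuclei were higher and 22.2% were lower. No member was lower. The median log2 ratio was 0.83 over the 10 members and -0.11 over all 10724 genes. The class held 352 MIP and 298 control nuclei, with 965155 and 1000339 UMIs. At Leiden resolution 2, a finer clustering, it split largely by library: 332 MIP and 19 control nuclei lay in a cluster led by Inpp5d and Ly86, 1 and 237 in one led by Siglech and Gm10790, and 19 and 42 in a smaller one. The ratios within the class therefore set nuclei of mostly different finer clusters side by side.

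Bcl3 had the largest ratio among the members. It gave 72 UMIs in MIP microglia-like nuclei, against 7 in control, levels of 74.6 and 7.0 CPM and a 10.7-fold difference (interval 4.92 to 27.5). The UMIs lay in 57 of 352 MIP nuclei and 6 of 298 control nuclei, with at most 3 and 2 in a single nucleus, so no single nucleus carried the difference. Of all Bcl3 UMIs in kept nuclei, 79.1% lay in microglia-like nuclei in the MIP library and 17.1% in the control library. By ratio, 20 of the 10724 genes ranked above Bcl3.

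Birc3, which encodes the NF-kB-induced ligase cIAP2, followed. It gave 114 UMIs in MIP and 22 in control microglia-like nuclei, or 118 and 22.0 CPM, a 5.37-fold difference (3.38 to 8.91). The counts lay in 78 MIP and 20 control nuclei, and 51 genes ranked above it by ratio. Microglia-like nuclei held 54.3% of the Birc3 UMIs of the MIP library and 19.1% of those of the control library.

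The ratios of the subunits were smaller than those of Bcl3 and Birc3. Relb, the subunit of the slower branch, gave 61 UMIs in MIP and 25 in control, or 63.2 and 25.0 CPM, with a log2 ratio of 1.34 (0.65 to 2.07). Rel gave 188 and 103 UMIs, or 195 and 103 CPM, with a log2 ratio of 0.92 (0.57 to 1.28). Both intervals lay above a ratio of 1, and 222 genes ranked above Relb and 547 above Rel. Nfkb1, the member with the most UMIs, gave 349 and 259, or 362 and 259 CPM, a log2 ratio of 0.48 (0.25 to 0.72) that did not reach 1.5-fold. Rela gave 24 and 15 UMIs (log2 ratio 0.73, -0.26 to 1.77) and Nfkb2 17 and 10 (0.82, -0.39 to 2.11). These last intervals hold a ratio of 1, so a difference in Rela or Nfkb2 was not detectable at this depth.

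Among the inhibitors and the receptor the counts were low. Nfkbia gave 38 UMIs in MIP and 22 in control microglia-like nuclei, or 39.4 and 22.0 CPM, with a log2 ratio of 0.84 (0.05 to 1.67). Tnfaip3 gave 23 and 15 UMIs (0.67, -0.33 to 1.71). Tnfrsf1a gave 15 and 11 UMIs (0.50, -0.72 to 1.77) and was, with Nfkb1, the other member under 1.5-fold. A difference in Tnfaip3 or Tnfrsf1a was not detectable at this depth.

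**Figure D2:**
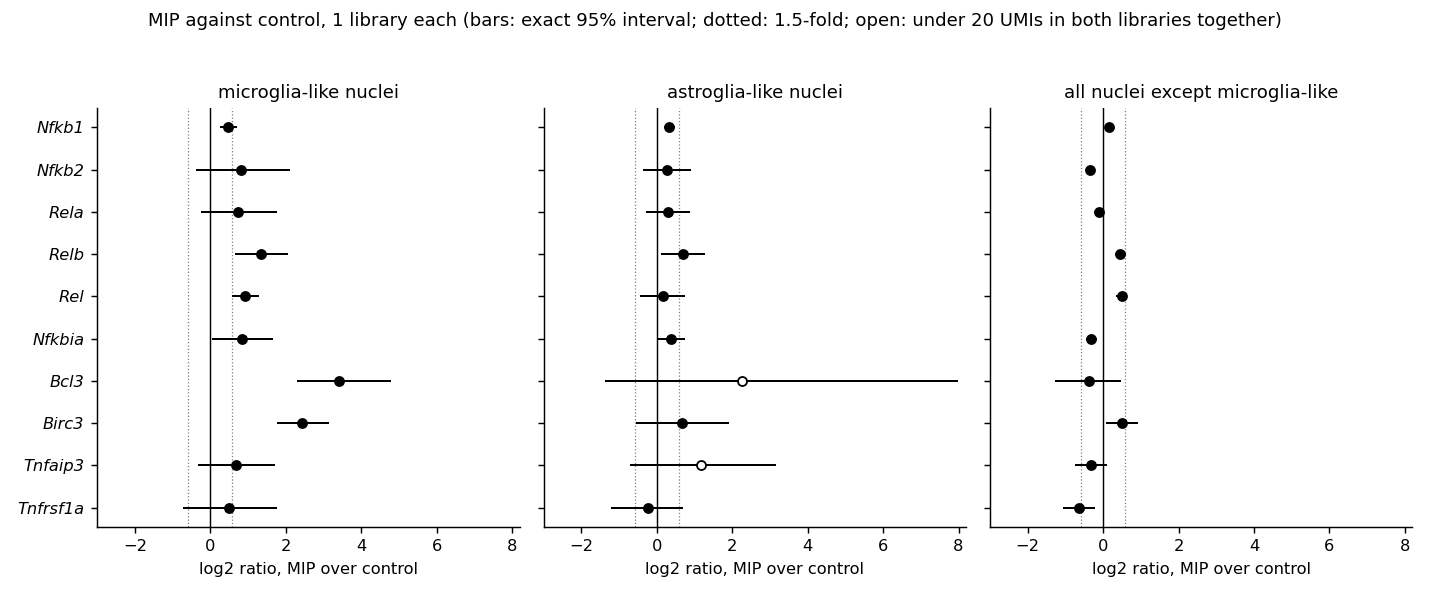
Log2 ratio of MIP to control for each gene in microglia-like nuclei, astroglia-like nuclei and all nuclei except microglia-like ones, with exact 95% intervals and open points under 20 UMIs. In microglia-like nuclei Bcl3 lies at 3.41 and Birc3 at 2.43, while over all other nuclei the members lie between -0.63 and 0.51.

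The background was different for genes enriched in microglia-like nuclei. Of the 1667 genes at least 4 times higher in microglia-like nuclei than in all other nuclei, 25.9% were higher and 19.9% lower in MIP, with a median log2 ratio of 0.14. The set was chosen on both libraries pooled, so a higher level in MIP helps a gene to enter it, and no count of members within it is given as support. Of the 10 members, 7 belong to it, and Relb is in it through the MIP library, at 6.62 times the level of all other nuclei there and 3.60 times in the control library. Within the set, 15 genes ranked above Bcl3 and 42 above Birc3. The plot of all genes in these nuclei shows Bcl3 and Birc3 at the upper edge and the other members within the cloud of points.

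**Figure D3:**
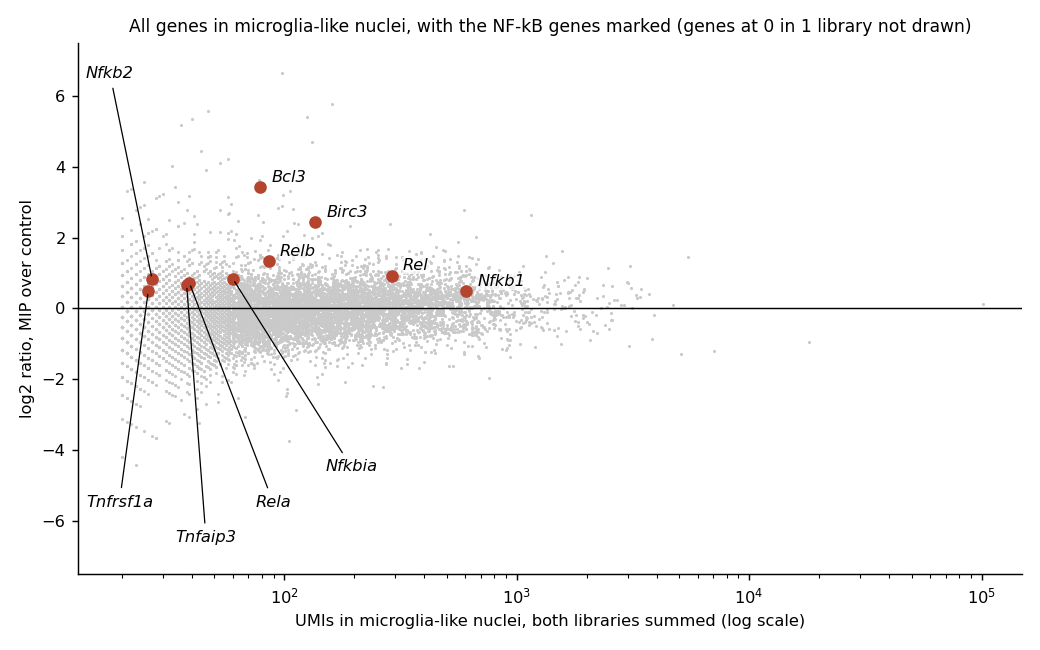
Log2 ratio of MIP to control against summed UMIs of both libraries (log axis) for each gene with at least 20 UMIs in microglia-like nuclei, with the 10 NF-kB genes in red (genes at 0 in 1 library not drawn). All 10 lie above 0, Bcl3 at 3.41 on 79 UMIs and Nfkb1 at 0.48 on 608 UMIs.

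Composition of the class differed between the libraries, and its part in these ratios was not tested. The 10 microglia markers summed to 8619 CPM in MIP and 7065 CPM in control microglia-like nuclei, a log2 ratio of 0.29, with 4 higher and 1 lower. The summed markers of 7 neural classes were lower in MIP with intervals below a ratio of 1, among them those of astroglia at 263 and 462 CPM, of neuroblasts at 130 and 307 and of interneurons at 547 and 957. Cycling progenitor markers, also among the 7 at 342 and 632 CPM, include cell-cycle genes that are not particular to neural cells. The smaller microglia-like cluster (19 MIP and 42 control nuclei) had 3 cycling progenitor markers among its top 100 genes, so it may hold cycling microglia. The sums of 3 others did not differ beyond counting error, with differentiating oligodendrocyte markers at 471 and 505 CPM, ependymal markers at 38.3 and 33.0 and cholinergic neuron markers on 6 UMIs in each library. Of the leukocyte markers, 6 of 10 were at 0 in both libraries and the sum was 2 UMIs in MIP and 8 in control. Each member was also set against the microglia markers instead of the class total, a comparison added after seeing the data. The members then higher by at least 1.5-fold were Bcl3 (log2 ratio 3.13), Birc3 (2.14), Relb (1.05) and Rel (0.63). The share of all genes higher by this scaling is not given.

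Markers of border macrophages, the macrophages of meninges and vessels, were higher as well. The 8 markers summed to 936 CPM in MIP and 274 CPM in control microglia-like nuclei, a log2 ratio of 1.77. Mrc1 gave 452 and 171 UMIs, F13a1 158 and 3, and Dab2 271 and 96. Ms4a7 gave 14 and 1 UMIs and Cbr2 6 and 0. Pf4 gave 1 and 2 UMIs, Cd163 1 and 1, and Lyve1 was at 0 in both libraries, while Pf4 gave 62 and 70 UMIs in the 24 and 22 border macrophage-like nuclei. In the 115 MIP and 175 control microglia-like nuclei without a UMI of any of the 8 markers, a set chosen after seeing the data, Bcl3 gave 24 and 4 UMIs (log2 ratio 3.53, 1.99 to 5.52) and Birc3 36 and 18 (1.95, 1.09 to 2.85). Relb gave 23 and 13 UMIs there (1.77, 0.73 to 2.88) and Rel 56 and 64 (0.76, 0.21 to 1.30). The share of all genes past 1.5-fold in this set is not given, so no count of members is drawn from it. In the larger of the microglia-like clusters (333 MIP and 256 control nuclei), Bcl3 gave 67 and 7 UMIs (log2 ratio 3.15) and Birc3 109 and 21 (2.26).

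The difference in Bcl3 and Birc3 was also one of how many nuclei had the transcript. Every nucleus was thinned to 2000 UMIs, which left out 75 MIP and 18 control microglia-like nuclei and kept 277 and 280. Bcl3 was then found in 11.2% of MIP (interval 7.73% to 15.5%) and 0.714% of control nuclei (0.0866% to 2.56%). Birc3 was found in 15.9% of MIP (11.8% to 20.7%) and 4.64% of control nuclei (2.49% to 7.81%). Unthinned, the shares were 16.2% and 2.01% for Bcl3 and 22.2% and 6.71% for Birc3, in the same order as after thinning.

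Rel was found in 29.6% of MIP and 17.5% of control microglia-like nuclei after thinning, and Nfkb1 in 51.3% and 39.6%. The intervals of Rel (24.3% to 35.4% and 13.2% to 22.5%) did not overlap, and those of Nfkb1 (45.2% to 57.3% and 33.9% to 45.6%) overlapped slightly. Relb at 9.39% and 5.36% and Nfkbia at 6.86% and 2.86% had overlapping intervals. Nfkb2, Rela and Tnfaip3 differed by less than 1 percentage point between the libraries, and the shares of Tnfrsf1a, 2.17% and 3.93%, ran against its level in CPM, so no order is read from them.

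Spiny projection neuron-like nuclei, which are not known for Bcl3 or Birc3, were taken as a comparison for the share that free RNA can give. Bcl3 was found in 0 of 2392 MIP and 0 of 2656 control nuclei of that class, which by the limit of 3 nuclei taken for a count of 0 allows up to 0.125% and 0.113%, and Birc3 in 0.0836% and 0.264%. Median depth before thinning was 2662 and 3103.5 UMIs in microglia-like nuclei and 7984 and 10790 UMIs in the neurons. The microglial shares of Bcl3 and Birc3 in MIP were above those of the neurons. Free RNA can be a smaller part of a deeper nucleus, so after thinning the neuron shares may be too low as a background for microglia-like nuclei. The part of free RNA in the microglial shares was not tested. The neurons give no such comparison for Nfkb2, whose mean level over both libraries was highest in neuron-like classes, though not separate from others. In MIP alone its level was highest in microglia-like nuclei, also not separate. Nfkb2 was found in 1.81% of MIP and 1.43% of control microglia-like nuclei, and in 2.59% and 3.77% of the neurons.

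**Figure D4:**
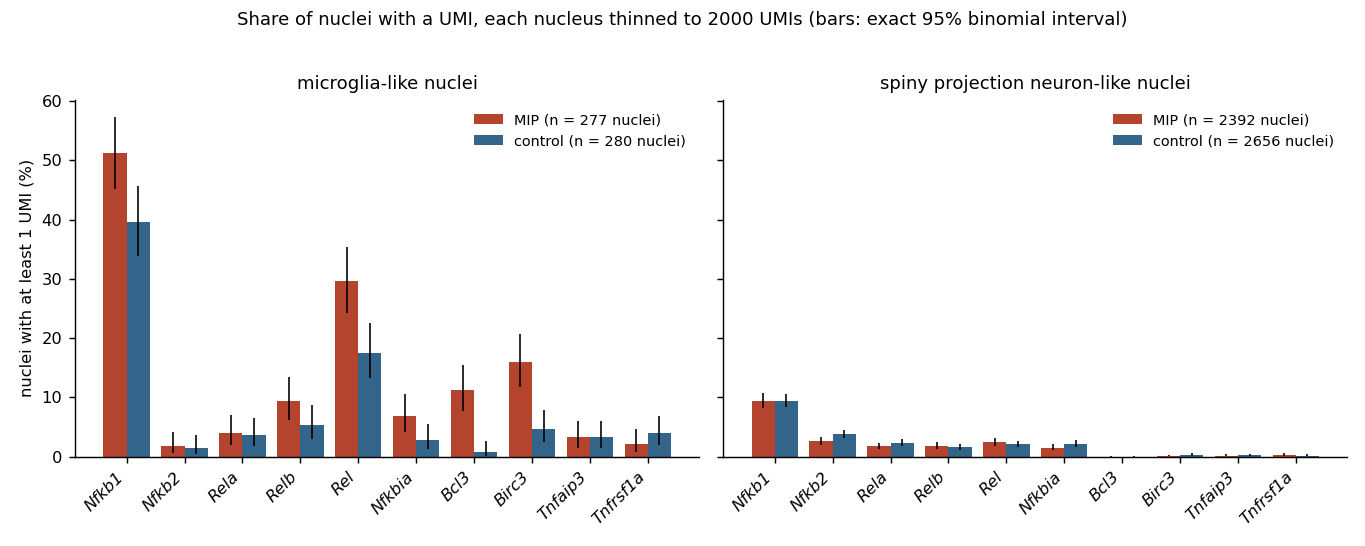
Share of nuclei with at least 1 UMI of each gene after thinning each nucleus to 2000 UMIs, in microglia-like and spiny projection neuron-like nuclei (MIP left of control, bars exact 95% binomial intervals). Birc3 was found in 15.9% of MIP and 4.64% of control microglia-like nuclei, and in under 1% of the neurons.

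Some nuclei held both Bcl3 and Birc3. After thinning, 31 MIP microglia-like nuclei had Bcl3, 44 had Birc3 and 9 had both, against 2, 13 and 0 in control. Either gene was found in 23.8% of MIP (18.9% to 29.3%) and 5.36% of control nuclei (3.03% to 8.68%). In MIP, Birc3 was found in 29.0% of the nuclei with Bcl3 (14.2% to 48.0%) and 14.2% of those without it (10.1% to 19.2%), and these intervals overlap. At least 1 of the 10 genes was found in 78.0% of MIP and 58.2% of control nuclei, and at least 2 in 37.9% and 18.9%.

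In astroglia-like nuclei the ratios were smaller. Of the 8 members with enough UMIs, 2 were higher and none was lower, where 5.10% of the 14954 genes were higher and 15.0% lower. The median log2 ratio of the 8 was 0.32, against -0.11 over all genes. Relb gave 53 UMIs in MIP and 52 in control, or 12.2 and 7.49 CPM (log2 ratio 0.70, 0.12 to 1.28). Birc3 gave 13 and 13 UMIs, or 2.99 and 1.87 CPM (0.68, -0.55 to 1.90), a difference not detectable at this depth. No member passed 1.5-fold without doublet removal or after thinning.

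Nfkb1, the inhibitor gene Nfkbia and the subunits Rela and Rel stayed under 1.5-fold in astroglia-like nuclei. Nfkb1 gave 672 and 852 UMIs, or 155 and 123 CPM (0.33, 0.19 to 0.48). Nfkbia gave 112 and 138 UMIs, or 25.8 and 19.9 CPM (0.38, 0.00 to 0.75). Bcl3 gave 3 UMIs in 1069 MIP nuclei and 1 in 1167 control nuclei, too few to compare. Microglia markers summed to 130 CPM in MIP and 151 CPM in control astroglia-like nuclei, lower in MIP.

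Fibroblast-like nuclei, few in both libraries (110 MIP and 58 control), had higher levels of Nfkb1. Of 5 members with enough UMIs, 4 were higher and none was lower, where 15.4% of genes were higher and 19.6% lower. The median log2 ratio was 0.71 over the 5 members and -0.02 over all genes. Nfkb1 gave 100 and 50 UMIs (log2 ratio 0.62, 0.12 to 1.14). Relb gave 18 and 6 UMIs, Rel 24 and 10, and Nfkbia 17 and 8, with intervals that hold a ratio of 1. Birc3, at 18 and 11 UMIs, did not reach 1.5-fold.

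Among neuron-like classes the clearest difference was in Rel. In excitatory neuron-like nuclei Rel gave 150 UMIs in 1000 MIP nuclei and 65 in 774 control nuclei, or 11.2 and 4.87 CPM (log2 ratio 1.20, 0.77 to 1.64). Of 7 members with enough UMIs Rel was the 1 member higher there and Tnfaip3, at 6 and 16 UMIs (-1.42, -3.07 to 0.00), the 1 member lower, where 4.03% of the 16519 genes were higher and 17.8% lower. In the cluster of the class led by Abi3bp and Tfap2d (469 MIP and 230 control nuclei), Rel gave 71 and 16 UMIs (1.56, 0.77 to 2.45). In the one led by Dpp10 and Etl4 (225 and 247 nuclei), Rel gave 31 and 23 UMIs (0.80, -0.02 to 1.65). Microglia markers summed to 76.8 CPM in MIP and 93.1 CPM in control nuclei of this class, lower in MIP. After thinning, Rel was found in 2.73% of MIP nuclei (1.81% to 3.94%) and 0.904% of control nuclei (0.364% to 1.85%), and median depth before thinning was 11626 and 14544.5 UMIs. By ratio, 94 of the 16519 genes ranked above Rel. Outside the class, Rel was higher in an unnamed cluster led by Prlr and not in one led by Adamtsl1, both given under Other observations. In spiny projection neuron-like nuclei Rel gave 273 and 337 UMIs, a log2 ratio of 0.28 (0.05 to 0.52).

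The remaining classes gave single calls. Nfkb2 was lower in neuroblast-like nuclei (19 and 79 UMIs, log2 ratio -0.66, where 6.92% of genes were higher and 14.3% lower) and in oligodendrocyte precursor-like nuclei (22 and 48 UMIs, -0.75, where 4.47% were higher and 15.4% lower). Nfkbia was lower in cycling progenitor-like nuclei, with 8 and 42 UMIs (-0.99, where 6.03% were higher and 13.4% lower). Rela was lower in differentiating oligodendrocyte-like nuclei on 4 and 16 UMIs (-0.87, where 8.57% were higher and 17.0% lower), and Tnfrsf1a in spiny projection neuron-like nuclei on 7 and 20 UMIs (-0.93, where 3.64% were higher and 16.4% lower). All 5 intervals hold a ratio of 1. Neuroblast-like and oligodendrocyte precursor-like nuclei also split by library at Leiden resolution 2, so their ratios compare mostly different finer clusters. The neuroblast-like clusters then held 648 MIP and 22 control, 33 and 932, and 45 and 286 nuclei, and those of oligodendrocyte precursor-like nuclei 623 and 18, and 21 and 652. No member passed in interneuron-like nuclei, where 3.41% of genes were higher and 16.8% lower, or in cholinergic neuron-like nuclei, where 8.88% were higher and 17.6% lower.

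Summed over all nuclei, 3 of the 10 genes were higher and none was lower, where 2.90% of the 22679 genes were higher and 20.9% lower. The median log2 ratio was 0.05 over the members and -0.20 over all genes. Bcl3 gave 91 UMIs in MIP and 41 in control (log2 ratio 1.61, 1.06 to 2.18), Birc3 210 and 115 (1.33, 0.99 to 1.67) and Rel 1048 and 946 (0.60, 0.48 to 0.73). Of the Rel UMIs, 17.9% lay in microglia-like nuclei in the MIP library and 10.9% in the control library. Relb, at 849 and 814 UMIs (0.52, 0.38 to 0.66), lay just under 1.5-fold. Microglia-like nuclei were 3.22% of MIP and 2.04% of control nuclei, and held 1.16% and 0.873% of the UMIs. The shares of nuclei count unnamed clusters of low depth in their base, which were 6.52% of MIP and 24.1% of control nuclei. In such sums more cells of a type and more RNA per cell cannot be told apart.

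The other 6 genes lay between -0.46 and 0.19 over all nuclei. Nfkb1 gave 6074 UMIs in MIP and 7304 in control (0.19, 0.14 to 0.24), and Nfkb2 1075 and 1855 (-0.33, -0.44 to -0.22). Nfkbia gave 636 and 1041 UMIs (-0.25, -0.40 to -0.11) and Tnfrsf1a 84 and 158 (-0.46, -0.85 to -0.06). Rela, at 804 and 1176 UMIs, had a log2 ratio of -0.09 that becomes 0.08 with trimmed mean scaling and 0.11 with the median of ratios, and Tnfaip3 (96 and 140 UMIs) one of -0.09 that becomes 0.09 and 0.12. With microglia-like nuclei left out, no member was higher and Tnfrsf1a was lower (69 and 147 UMIs, -0.63), where 2.49% of genes were higher and 21.4% lower. This depends on the scaling: with TMM (trimmed mean factors) or the median of ratios, which add 0.19 or 0.21 to every log2 ratio there, 3 members were higher (Relb, Rel and Birc3) and none lower, where 5.35% of genes were higher and 12.7% lower with TMM and 6.10% and 11.7% with the median. Bcl3 then gave 19 UMIs in MIP and 34 in control (-0.38, -1.27 to 0.47).

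These counts depend on the scaling, since fewer genes were higher than lower in each of the 11 classes and over all nuclei. TMM or the median of ratios would raise every log2 ratio by 0.16 or 0.11 in microglia-like nuclei and by 0.18 or 0.20 over all nuclei. In microglia-like nuclei all 10 members then pass 1.5-fold, where 18.1% of genes are higher and 15.7% lower with TMM and 15.8% and 17.3% with the median. Over all nuclei 4 members then pass, with Relb added, where 5.65% of genes are higher and 12.7% lower with TMM and 6.46% and 11.7% with the median. In excitatory neuron-like nuclei Relb is added to Rel with both scalings, and in cycling progenitor-like nuclei Relb is added with the median of ratios. No call in the other classes changed.

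Other genes of the pathway went in both directions in microglia-like nuclei, where, as above, 12.1% of all genes were higher and 22.2% lower. Of the 10 ligand genes, 3 had enough UMIs and 2 were higher. Il1a, which encodes interleukin 1 alpha, gave 76 UMIs in MIP and 26 in control (log2 ratio 1.60, 0.94 to 2.30), and Tnfsf12, which encodes the ligand TWEAK, 25 and 8 (1.70, 0.50 to 3.05). Il18 gave 99 and 71 (0.53).

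Of 24 receptor and adaptor genes, 17 had enough UMIs, 5 being higher and 2 lower, and the median log2 ratio was 0.26. Traf5, an adaptor of receptors of the tumour necrosis factor family, gave 118 and 56 UMIs (1.13, 0.66 to 1.61), and Ripk1, the kinase of the receptor complex, 111 and 54 (1.09, 0.61 to 1.59). Traf3 was higher at 171 and 109 (0.70), while the adaptor Traf2 (11 and 21, -0.88) and the receptor Tlr3 (23 and 37, -0.63) were lower with intervals that hold a ratio of 1. Birc2, the paralog of Birc3, gave 58 and 73 UMIs (-0.28, -0.80 to 0.24). Whether Birc2 and Birc3 differ in response was not tested.

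Among 14 kinase-complex genes, 13 had enough UMIs, 4 being higher and 1 lower, and the median was 0.26. Map3k8, a kinase held by the p105 precursor, gave 159 UMIs in MIP and 53 in control (1.64, 1.18 to 2.11). Tbk1, a kinase of the related interferon branch, gave 285 and 128 (1.21, 0.90 to 1.52), and Tab2, which links the upstream kinase TAK1 to ubiquitin chains, 475 and 257 (0.94, 0.72 to 1.16). Rbck1, of the linear ubiquitin ligase, was lower at 12 and 26 UMIs (-1.06). Chuk, a catalytic subunit of the IκB kinase, gave 45 and 59 (-0.34) and Tab1 50 and 54 (-0.06).

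Of 15 other inhibitor genes, 12 had enough UMIs, 4 being higher and none lower, and the median was 0.25. Nfkbiz, a nuclear member of the same inhibitor family as Bcl3, gave 53 UMIs in MIP and 21 in control (1.39, 0.63 to 2.19). Itch gave 556 and 360 (0.68, 0.48 to 0.87) and Tnip2, a partner of A20, 65 and 35 (0.94, 0.33 to 1.58). Tnip1, its relative, gave 27 and 28 UMIs (-0.00).

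Of 30 known target genes, 12 had enough UMIs in microglia-like nuclei, 3 were higher and 2 lower, and their median was 0.00. Nfkbiz, also in this list, was among the 3. Icam1, an adhesion molecule, gave 60 and 44 UMIs (0.50, -0.09 to 1.09) and Cd83 85 and 66 (0.42, -0.06 to 0.90), differences not detectable at this depth. Csf1, which encodes a macrophage growth factor, was lower at 37 and 100 UMIs (-1.38, -1.97 to -0.83), as was the chemokine gene Ccl3 at 16 and 31 (-0.90, -1.87 to 0.01). The survival gene Bcl2l1 gave 119 and 163 (-0.40, -0.76 to -0.05).

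**Figure D5:**
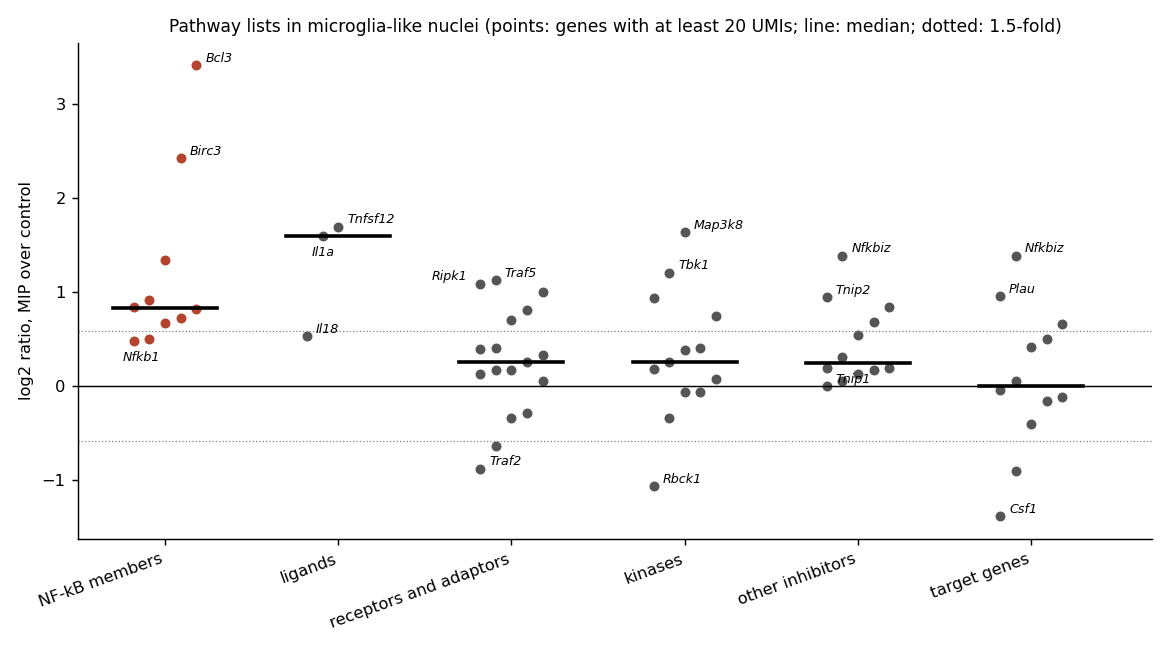
Log2 ratio of MIP to control in microglia-like nuclei for each gene with at least 20 UMIs, by list (points are genes, thick lines medians, dotted lines 1.5-fold). The members have a median of 0.83, the receptors and kinases 0.26, the other inhibitors 0.25 and the targets 0.00.

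In astroglia-like nuclei, where 5.10% of all genes were higher and 15.0% lower, 3 of 14 receptors and adaptors with enough UMIs were higher and 1 was lower. Traf3 gave 705 and 739 UMIs (0.61, 0.46 to 0.76) and Il1rap, the accessory chain of the interleukin 1 receptor, 179 and 176 (0.70, 0.39 to 1.01), while Irak4 was lower at 13 and 44 (-1.08). Of 13 kinase-complex genes 2 were higher, Map3k14, the kinase of the slower branch, at 245 and 241 UMIs (0.70, 0.44 to 0.96) and Tab2 at 583 and 585 (0.67, 0.50 to 0.84), and 2 were lower, Ikbke at 21 and 57 (-0.76) and Rnf31 at 20 and 54 (-0.76). Of 3 ligands Tnfsf13b was lower, at 10 and 24 UMIs (-0.59, -1.81 to 0.53). Of 11 target genes 2 were higher and none lower, led by Bcl2l1 at 477 and 444 UMIs (0.78, 0.59 to 0.97). Of 11 other inhibitors none was higher and 1 was lower.

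Over all nuclei, where 2.90% of all genes were higher and 20.9% lower, 4 of 24 target genes were higher and 1 was lower. The lower one was Il6, which encodes interleukin 6, at 4 UMIs in MIP and 17 in control (-1.63, -3.66 to -0.01). Saa3, an acute phase gene, gave 253 UMIs in MIP and 102 in control (1.77, 1.43 to 2.11), and the chemokine gene Ccl2 58 and 32 (1.31, 0.67 to 1.98). Of 8 ligands, Il1a at 88 and 42 UMIs (1.52, 0.98 to 2.09) and Tnf at 20 and 14 (0.97, -0.09 to 2.07) were higher, and Tnfsf13b (169 and 364, -0.65) and Ltb (37 and 77, -0.60) lower. Among 14 kinase-complex genes, Map3k8 at 259 and 173 UMIs (1.04, 0.76 to 1.32) and Tab2 at 7877 and 7054 (0.62, 0.57 to 0.66) were higher. Of 24 receptors and adaptors, Cd14 was higher at 68 and 50 UMIs (0.90, 0.35 to 1.46) and 4 were lower, among them Tnfrsf12a at 29 and 111 (-1.48, -2.12 to -0.88). Of 15 other inhibitors none was higher and Commd1 was lower at 1731 and 3944 UMIs (-0.73).

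The genes whose level followed 3 of the members most closely over the classes were found by Pearson correlation of log2(CPM + 1) over 22 points, 11 classes in each library, among 16712 genes. The points share 2 libraries and differ in depth, so the values are a description. For Nfkb1 these were Rrbp1 (r = 0.95), Traf5 (0.95), Erap1 (0.94), Crlf3 (0.94) and Snx13 (0.93). For Nfkbia they were Apoe (0.95), Gm20732 (0.93), Foxo3 (0.92), Plekho2 (0.92) and Rab22a (0.92). For Tnfrsf1a they were B2m (0.92), Agmo (0.91), Tcn2 (0.91) and Tap2 (0.91). Traf5 is also in the list of receptors and adaptors.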

How the data were processed

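The authors deposited a matrix of raw UMI counts for each of 2 libraries, made with Cell Ranger 5.0.1 on mm10 per the submitters' processing notes. The sources used here do not give the use of intronic reads or the barcode filter. The control file holds 0 barcodes with under 500 genes and the MIP file 204. The 10 genes, the pathway lists and the markers were chosen with earlier results of these data known.

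Barcodes with under 500 genes or over 5% mitochondrial UMIs (48 MIP, 114 control) were left out. Scrublet in Scanpy 1.11.5 marked 0 doublets in both libraries, so the top 0.8% per 1000 barcodes by score were removed (1174 MIP, 2271 control). Counts per 10000 were clustered on 3000 variable genes, without NF-kB, pathway, sex-linked, mitochondrial, ribosomal protein and haemoglobin genes, with 40 principal components, 20 neighbours and Leiden resolution 1 (leidenalg 0.10.2, igraph 0.11.9). A cluster took a name where at least 3 markers were among its top 100 genes by fold, those in at least 10% of its nuclei, and 2980 MIP and 5690 control nuclei stayed unnamed. Of these, 713 and 3509 lay in clusters of low depth.

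Counts were summed per class and compared as CPM of the class total, with exact Poisson intervals. The interval code was tested on simulated counts with known ratios. TMM factors came from edgeR 4.0.16. Besides all members, up to 3 genes highest and lowest in each list and region were named, given 20 UMIs or more, ranked on whichever interval bound lies closer to equality, and the 5 genes most like Nfkb1, Nfkbia and Tnfrsf1a by correlation. Other scalings, filters, doublet handling, thinning, class definitions, minimums and a fold of 2 were tried as alternatives. Of the 4 clusters of excitatory neuron-like nuclei, 2 are not reported singly, and 1 gene most like Tnfrsf1a is not reported here.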

Additional observations from a re-analysis of the deposited data

Results flagged for a closer look

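For Nfkb2, Rela, Nfkbia and Tnfaip3 the ratio of MIP to control passed 1.5-fold in opposite directions in different classes. The share of all genes that do so is not given, so this is not read as particular to the members. Of all genes, 12.1% were higher in microglia-like nuclei, and 13.4% to 17.8% were lower in the classes where these members were lower. Whether the classes differ was not tested, and each ratio rests on 1 library per group. Nfkb2 had a log2 ratio of 0.82 in microglia-like nuclei, on 17 UMIs in MIP and 10 in control. It was at -0.66 in neuroblast-like nuclei (19 and 79 UMIs) and at -0.75 in oligodendrocyte precursor-like nuclei (22 and 48 UMIs).

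Rela was at 0.73 in microglia-like nuclei (24 and 15 UMIs) and at -0.87 in differentiating oligodendrocyte-like nuclei (4 and 16 UMIs). Nfkbia was at 0.84 in microglia-like nuclei (38 and 22 UMIs) and 0.71 in fibroblast-like nuclei (17 and 8 UMIs), and at -0.99 in cycling progenitor-like nuclei (8 and 42 UMIs). Tnfaip3 was at 0.67 in microglia-like nuclei (23 and 15 UMIs) and at -1.42 in excitatory neuron-like nuclei (6 and 16 UMIs). Apart from that of Nfkbia in microglia-like nuclei, each of these intervals holds a ratio of 1.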

How the results depend on the processing

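The 8 members higher in microglia-like nuclei became 5 with nuclei thinned to 2000 UMIs (Relb, Rel, Nfkbia, Bcl3 and Birc3), 4 when scaled to the summed microglia markers and 3 at a fold of 2. The other alternatives gave 6 to 10. The 2 members higher in astroglia-like nuclei became 0 without doublet removal, 0 after thinning, 0 at a fold of 2, and 4 with no minimum of UMIs. Over all nuclei the count of 3 ranged from 2 to 4. The share of all genes past the fold is given only for the class total, TMM and the median of ratios. Under the other alternatives these counts have no such background, and are not read as particular to the members. With microglia-like nuclei left out, the 1 member past 1.5-fold (Tnfrsf1a, lower) became 3 (Relb, Rel and Birc3, higher) with TMM and 3 with the median of ratios, both chosen after seeing the data. No called value changed sign. In microglia-like nuclei the log2 ratio of Bcl3 ranged from 3.13 to 4.19 over 11 alternatives, that of Birc3 from 1.95 to 2.80, of Relb from 0.93 to 1.77 and of Rel from 0.63 to 1.12, while Tnfrsf1a ran from -0.86 after thinning to 0.69. The cause of these shifts was not tested. Scaling to microglia markers, leaving out border marker UMIs or the smaller cluster, and counting at most 1 UMI per nucleus and gene were alternatives chosen after seeing the data.

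Leaving out a replicate could not be done with 1 library per group. No paired analysis was possible because each group has 1 library. Depth limits Nfkb2, Rela, Tnfaip3 and Tnfrsf1a in microglia-like nuclei, whose intervals hold a ratio of 1.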

Other observations

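Border macrophage-like nuclei, too few to compare (24 MIP and 22 control), held Bcl3 at 7 UMIs in MIP and 1 in control, Birc3 at 15 and 9 and Rel at 18 and 4. The totals of that class were 123880 and 93099 UMIs, against 965155 and 1000339 in microglia-like nuclei. Birc3 gave 114 and 22 UMIs in microglia-like nuclei, so per UMI it was no higher there than in border macrophage-like nuclei. Endothelial-like nuclei (12 and 21) held Nfkbia at 11 UMIs in MIP and 14 in control, or 218 and 90.9 CPM. Ependymal-like nuclei (16 and 44) held 83 and 54 UMIs of Nfkb1, and 32 of the 83 came from a single MIP nucleus.

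In the control library most Bcl3 lay outside microglia. An unnamed cluster led by Prlr (1247 MIP and 1197 control nuclei) held 2 of the 91 Bcl3 UMIs of the MIP library and 17 of the 41 of the control library. Rel in that cluster gave 118 UMIs in MIP and 80 in control (log2 ratio 0.98, 0.56 to 1.41), while in the unnamed cluster led by Adamtsl1 it gave 32 and 25 (-0.26, -1.06 to 0.55). A cluster with Adamtsl1 among its leading genes was named excitatory neuron without doublet removal (638 MIP and 494 control nuclei). The same name was given with at least 1000 genes and at most 2% mitochondrial UMIs (179 and 98 nuclei). The Rel difference of excitatory neuron-like nuclei thus depends on which clusters take that name.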
